A study of Mus musculus with 2 samples.

Results

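Among the mouse piRNA sequences detected in GC-1 cells, 4 are pieces of the miRNA hairpins Mir744, Mir872, Mir138-1 and Mir467c. They were taken by their identifiers, mmu_piR_017405, mmu_piR_020120, mmu_piR_000273 and mmu_piR_011141, and are 4 of the 90 piRNAs with a read and 4 of the 26 that lie in a miRNA hairpin. GC-1 is an immortalised mouse spermatogonia line. Small RNA was sequenced in 1 control library, from cells without toxin (0 nM MC-LR), and in 1 exposed library, from cells given 500 nM MC-LR. Both cultures were held for 24 h in medium with serum, and nothing in the labels says how many wells were pooled. MC-LR, microcystin-LR, is a cyanobacterial peptide toxin that inhibits serine/threonine protein phosphatases. The 4 were chosen by their hairpin origin and by the CPM ratios (MC-LR over control) and read numbers of these same libraries, so their differences between the libraries are a description, with no test. The tables list piRNA sequences only, so the labelled cell type could not be checked against marker genes.

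A miRNA is cut from a longer transcript in steps. Drosha releases the hairpin in the nucleus, Dicer removes its loop in the cytoplasm, and 1 strand of the remaining duplex is loaded into an Argonaute protein. The bases after the first base, the seed (bases 2 to 8), pair with target mRNAs, so the 5′ end of a miRNA sets its targets, while its 3′ end is often trimmed or extended. piRNAs are made without Dicer, bind PIWI proteins and silence transposons in the germ line, and they are usually longer than miRNAs.

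The annotated piRNA sequences are shown because their ends decide which forms of each miRNA could be counted. They are given as deposited, in DNA letters, with the seed in capitals.
mmu_piR_017405 (Mir744): tGCGGGGCtagggctaacagca
mmu_piR_020120 (Mir872): tGAACTATtgcagtagcct
mmu_piR_000273 (Mir138-1): aGCTGGTGttgtgaatcaggccgtt
mmu_piR_011141 (Mir467c): tAAGTGCGtgcatgtatatgtgt

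By symbol, 3 of the 4 hairpins (not Mir467c) were matched to RefSeq miRNA sequences (GRCm38.p6). The mature miRNAs that overlap the fragments are shown for comparison of the ends, again with the seed in capitals.
mmu-miR-744-5p: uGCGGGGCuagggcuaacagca
mmu-miR-872-3p: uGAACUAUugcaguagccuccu
mmu-miR-138-5p: aGCUGGUGuugugaaucaggccg
Each of these 3 fragments starts at the first base of its mature miRNA. The Mir744 piRNA is miR-744-5p itself, 22 nt. The Mir872 piRNA stops 3 nt short of miR-872-3p (19 against 22 nt), and the Mir138-1 piRNA runs 2 nt past miR-138-5p (25 against 23 nt). The 4 seeds differ from each other. Each of the 3 seeds with a RefSeq entry belongs to 1 mature name in that table, and 0 other detected piRNAs carry a seed of the 4.

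The fragments come from different chromosomes and from both arms of their hairpins. On GRCm38 (GENCODE M21), which is not the build named by the submitters, the Mir744 fragment lies at chr11:65734799-65734820 on the minus strand, within an intron of Map2k4, which encodes a kinase that activates JNK and p38. The Mir872 fragment lies at chr4:94665206-94665224 on the plus strand, within an intron of Ift74, which encodes a protein of intraflagellar transport. The Mir467c fragment lies at chr2:10473941-10473963 on the plus strand, within an intron of Sfmbt2, an imprinted Polycomb gene whose intron holds a large rodent cluster of related miRNA hairpins. These 3 have the strand of their host gene. The Mir138-1 fragment lies at chr9:122682898-122682922 on the plus strand, in an exon of the transcribed pseudogene Gm47135, which is on the same strand.

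The 3 hairpins in RefSeq are shown in full to place the fragments, with the fragment in capitals.
Mir744: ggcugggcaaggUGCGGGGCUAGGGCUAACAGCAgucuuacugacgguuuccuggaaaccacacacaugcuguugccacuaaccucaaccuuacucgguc
Mir872: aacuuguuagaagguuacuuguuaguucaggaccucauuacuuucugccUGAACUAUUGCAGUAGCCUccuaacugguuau
Mir138-1: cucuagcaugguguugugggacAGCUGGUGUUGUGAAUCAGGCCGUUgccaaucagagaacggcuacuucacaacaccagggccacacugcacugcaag
The Mir744 and Mir138-1 fragments stand in the 5′ arm (bases 13 to 34 of 100 and 23 to 47 of 99) and the Mir872 fragment in the 3′ arm (bases 50 to 68 of 81). In the minimum free energy fold predicted by RNAfold, 18 of 22 bases of the Mir744 fragment were paired, 17 of 19 of the Mir872 fragment and 20 of 25 of the Mir138-1 fragment. No other detected piRNA shared 15 nt with any of the 4 hairpins, so 1 arm of each was seen among the piRNAs. An arm that is not itself an annotated piRNA could not be counted, and whether the other arms are annotated was not looked up. The absence of the other arms thus says nothing of their level in the cells. The Mir532 hairpin was seen with both arms, the scarcer of them at 54 control and 84 exposed reads.

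All counts are reads assigned to piRNAs, 244066 in the control and 359871 in the exposed library. A fragment of 5S ribosomal RNA (mmu_piR_000691) took 87.6% of the control and 91.4% of the exposed reads, which left 30307 and 31115 reads for all other piRNAs. Levels are therefore given as counts per 1000000 piRNA reads (CPM) and, where it matters, against the reads outside the 5S fragment. Each read is a whole small RNA, so no scaling by length was applied. Together the 4 fragments held 4264 reads in the control and 4738 in the exposed library, or 1.75% and 1.32% of all piRNA reads. Of the reads outside the 5S fragment they held 14.1% and 15.2%, and of the reads of hairpin piRNAs 28.9% and 33.3%. Intervals are 95% exact intervals (Clopper-Pearson for shares and ratios, Poisson for counts) and the intervals of changes between 2 ratios are taken from the log odds ratio. Copies made by PCR cannot be told from separate molecules here, so every interval covers counting error only and speaks of these 2 libraries, not of the conditions.

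The deposited tag tables list each distinct read sequence (tag) that lies within a piRNA and is at most 3 nt shorter. The 4 fragments had 10 tags in the control and 11 in the exposed library. Longer and still shorter forms were not measured, and this window stands differently on each miRNA. For miR-744 it covers the full mature form and shorter ones. For miR-872 it leaves out the full mature form, whose last 3 bases lie beyond the piRNA. For miR-138 it covers forms of 22 to 25 nt, with the 23-nt mature form among them. For Mir467c, not matched in RefSeq, it is not known here whether the window covers the mature form.

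**Figure D1:**
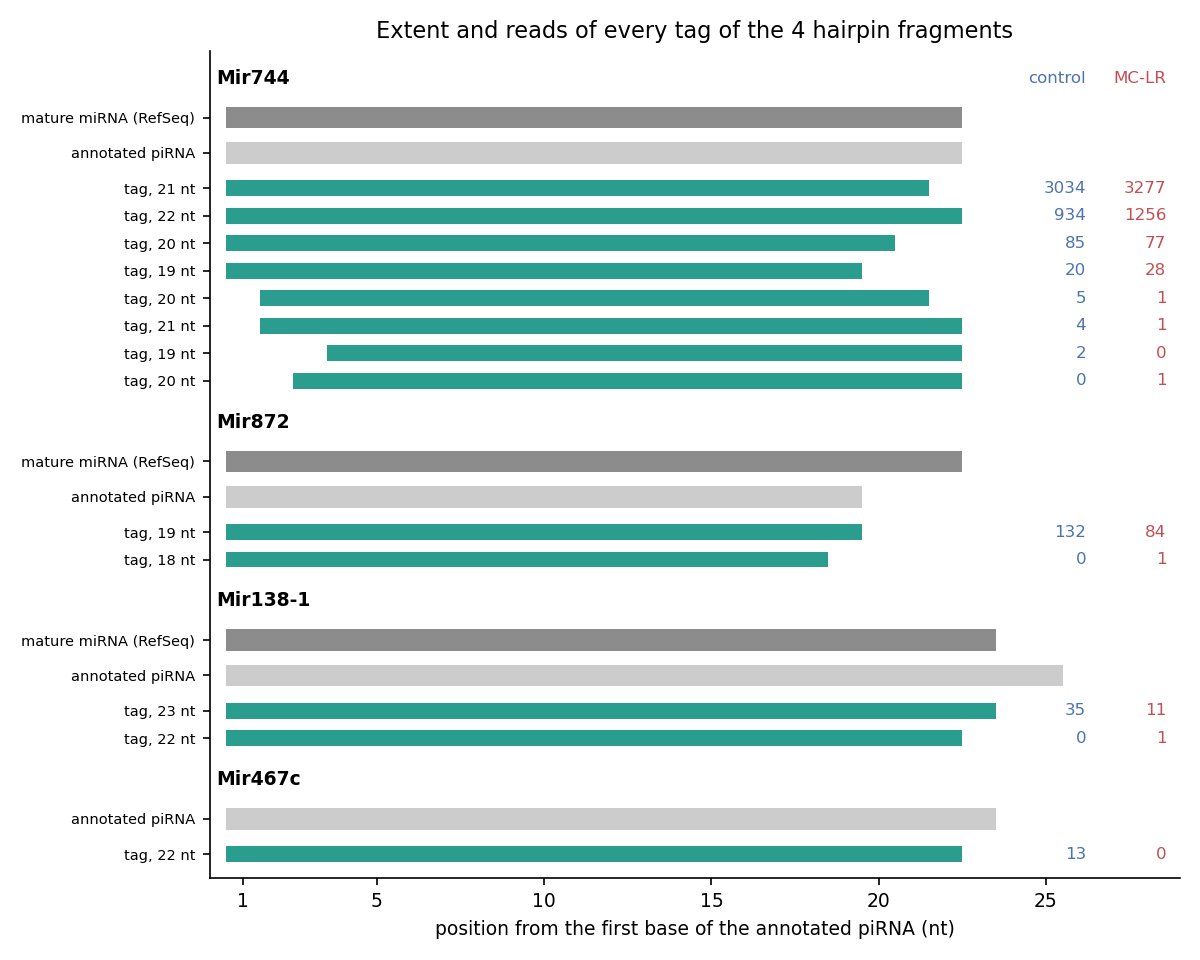
Bars show the extent of each tag, of the annotated piRNA and of the RefSeq mature miRNA, on an axis of positions (nt) from the first base of the annotated piRNA; the numbers at the right are the reads of each tag in the control (blue) and MC-LR (red) library. All tags of Mir872, Mir138-1 and Mir467c start at position 1, and 4 of the 8 Mir744 tags start further in, with at most 5 reads each.

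The Mir744 fragment, miR-744-5p, was by far the most abundant of the 4. The control held 4084 of its reads (3960 to 4211) and the exposed library 4641 (4508 to 4776), at rank 4 among the piRNAs of each library. Its level was 16733 CPM without and 12896 CPM with the toxin, a ratio (MC-LR over control) of 0.771 (0.739 to 0.804). Of the reads other than the 5S fragment it made up 13.5% and 14.9%, and the ratio was 1.11 (1.06 to 1.15). The direction of the Mir744 difference thus turned with the scale, and no direction is given for it. miR-744 is known from work on mouse cells as an activator of Ccnb1, the cyclin B1 gene, through its promoter.

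Among the tags that could be counted, the 5′ end of the Mir744 fragment was nearly uniform. Of its reads, 4073 of 4084 in the control, or 99.7% (99.5 to 99.9), and 4638 of 4641 in the exposed library, or 99.94% (99.81 to 99.99), started at the first base of miR-744-5p and so carried its seed. The other 11 control and 3 exposed reads lacked 1 to 3 bases at the 5′ end. Since a tag lies within its piRNA, reads that start before the first base could not be counted. Only shortening of the 5′ end could be seen, here and for the other fragments.

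The 3′ end varied, and the 2 leading forms differ by the last A. They are shown with their last base in capitals, since the balance between them is what differed between the libraries.
Mir744, 22 nt: tgcggggctagggctaacagcA
Mir744, 21 nt: tgcggggctagggctaacagC
The 21-nt form, 1 base short of the RefSeq entry, led in both libraries. It had 3034 control reads, or 74.3% of the fragment (72.9 to 75.6), and 3277 exposed reads, or 70.6% (69.3 to 71.9). The full 22-nt form had 934 control reads, or 22.9% (21.6 to 24.2), and 1256 exposed reads, or 27.1% (25.8 to 28.4). The intervals of the libraries do not overlap for either form. Of the forms that start at the first base, that of 20 nt made up 2.08% and 1.66% and that of 19 nt 0.490% and 0.603%, with overlapping intervals. The 22-nt form stood at 0.308 of the 21-nt form in the control and at 0.383 in the exposed library, a change of 1.25 (1.13 to 1.37) that no scaling of the libraries can alter. Per form, the CPM ratio was 0.912 (0.837 to 0.994) for 22 nt and 0.733 (0.697 to 0.770) for 21 nt. With the 5S fragment left out of the total these were 1.31 (1.20 to 1.43) and 1.05 (1.001 to 1.11), both above 1 on that scale. The mean length of the reads moved little, from 21.20 to 21.24 nt.

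This shift of the Mir744 3′ end was set beside that of other fragments. Of 18 piRNAs with at least 50 reads in each library and with both kinds of end, 16.7% had higher odds of ending at the last annotated base in the exposed library by an interval that excludes 1, and 11.1% had lower odds. Counting all forms that keep the last base, Mir744 had 940 of 4084 and 1258 of 4641 reads there, an odds change of 1.24 (1.13 to 1.37), the sixth highest of the 18. The most abundant hairpin fragment, mmu_piR_025576 of Mir532, kept its last base in 41.2% and 41.4% of reads, a change of 1.01 (0.948 to 1.07). The next, mmu_piR_028252 of Mir1839, kept it in 26.7% and 23.1%, a change of 0.822 (0.632 to 1.07). The Mir744 change was 1.24 times that of mmu_piR_025576 (1.10 to 1.39) and 1.51 times that of mmu_piR_028252 (1.14 to 2.002), both beyond counting error. For the other Mir532 arm, mmu_piR_028975, the figure was 1.83 with an interval that includes 1 (0.909 to 3.70). The interval of this figure included 1 for most of the piRNAs outside hairpins as well, and excluded it for the rest. The 5S fragment moved the same way as Mir744, by 1.08 (1.05 to 1.11).

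**Figure D2:**
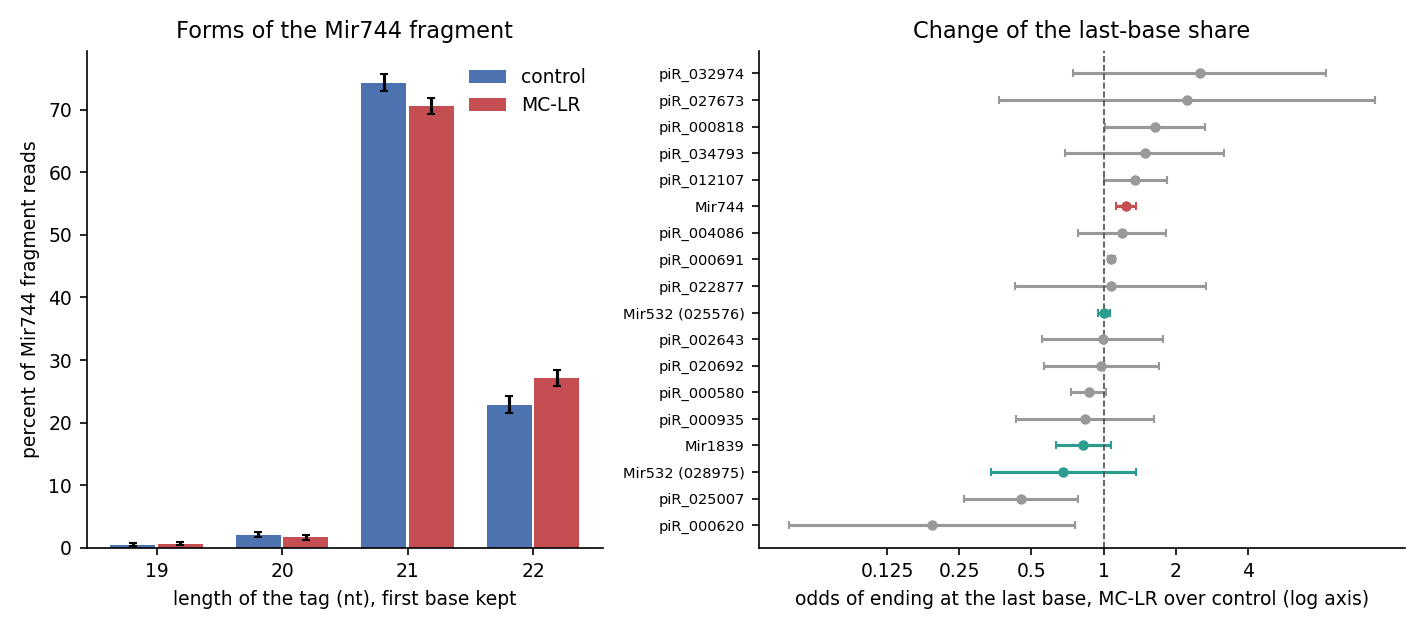
Left, percent of Mir744 fragment reads (vertical axis) in forms of 19 to 22 nt that start at the first base, for the control (blue) and MC-LR (red) library with exact 95% intervals. Right, change of the odds of ending at the last annotated base, MC-LR over control, on a log axis with 95% intervals, for Mir744 (red), other hairpin fragments (green) and other piRNAs (grey). The 22-nt bar is higher in the exposed library (27.1% against 22.9%), and Mir744 is 1 of 3 piRNAs whose interval lies above 1.

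The Mir872 fragment, the shortest of the 4, was read at full length almost throughout. It had 132 control reads (110.4 to 156.5) and 85 exposed reads (67.9 to 105.1), or 541 and 236 CPM, and its rank went from 16 to 20. All 132 control reads were the 19-nt sequence. In the exposed library 84 of 85 were, 98.8% (93.6 to 99.97), and 1 read lacked the last base. All reads thus began with the seed of miR-872-3p and ended 3 or 4 bases before its annotated end. Its CPM ratio was 0.437 (0.329 to 0.578), and 0.627 (0.472 to 0.830) with the 5S fragment left out of the total. It was lower on both scales by an interval that excludes 1, and below a ratio of 0.5 on the first alone. Since the 22-nt mature form could not be counted, these values describe the shortened form and not miR-872-3p as a whole.

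The Mir138-1 fragment was seen in the mature form of miR-138-5p and in no longer one. miR-138 is known for its role in neurons, where it limits dendritic spine size through the depalmitoylating enzyme Lypla1. The fragment had 35 control reads (24.4 to 48.7) and 12 exposed reads (6.20 to 21.0), or 143 and 33.3 CPM, at ranks 24 and 38. All 35 control reads and 11 of the 12 exposed reads were the 23-nt form, and the remaining 1 was 22 nt. The CPM ratio was 0.233 (0.110 to 0.459), and 0.334 (0.158 to 0.659) with the 5S fragment left out of the total, below 0.5 on both. The highest ratio among the scalings run was 0.380 (0.180 to 0.751), against the reads of the other hairpin piRNAs.

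These reads do not single out the Mir138-1 locus. The same miRNA is made from a second hairpin, Mir138-2, at chr8:94324312-94324334 on the plus strand (GRCm38), in an exon of the lincRNA C78859. Over the 25 bases from the start of the fragment, the loci differ only after base 23. The RefSeq sequences of this stretch are shown, with the bases past the mature end in capitals.
Mir138-1: agcugguguugugaaucaggccgUU
Mir138-2: agcugguguugugaaucaggccgAC
The differences over these 25 bases are U24A and U25C, Mir138-1 first, counted from the 5′ end of the fragment. Of the 35 control and 12 exposed reads, 0 reached past base 23. For this count of 0 the exact interval reached 10.0% of the control and 26.5% of the exposed reads, and the floor of 3 reads would be 8.57% and 25%. Both tags matched both hairpins, so the reads are those of miR-138-5p from either locus.

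The Mir467c fragment was seen in the control alone. It had 13 control reads (6.92 to 22.2), or 53.3 CPM, and 0 exposed reads, where the floor of 3 reads stands at 8.34 CPM. All 13 reads were a single 22-nt tag, the annotated sequence without its last base, and each started at the first base. Whether this tag is the mature miRNA or a shortened form is not known here. Set at that floor in the exposed library, the fragment was 6.39-fold lower there (3.40 to 10.9 by the counting error of its control reads). With the 5S fragment left out of the total it was 4.45-fold lower. Scaled to the reads of the other hairpin piRNAs, which gave the lowest fold of the scalings run, it was 3.91-fold lower. At the control's share, 19.2 reads would have been found in the exposed library on the first scale and 13.3 on the other. The exact interval of the ratio, which covers the counting error of both libraries, reached 0.223 and 0.320. The tag matched Mir467c and no other transcript of GENCODE M21.

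**Figure D3:**
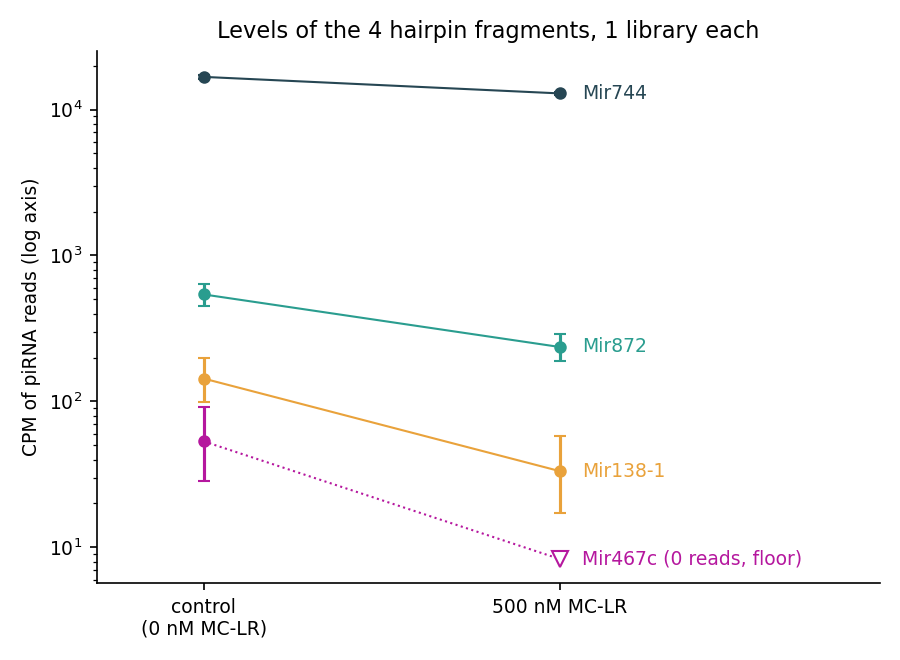
Level of each fragment in CPM of piRNA reads (log axis) in the control and the 500 nM exposed library, 1 library each, with exact Poisson 95% intervals for counting error; the open triangle is the floor of 3 reads (8.34 CPM) for Mir467c, which had 0 exposed reads. The order Mir744, Mir872, Mir138-1, Mir467c is the same in both libraries and the lines lie further apart on the right.

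Relative to each other, the 4 fragments kept their order, and Mir744 stood further above Mir872 and Mir138-1 in the exposed library. These ratios are free of library scaling, but they depend on which forms of each miRNA the tags cover. Mir744 includes its full mature form, while Mir872 is the shortened form alone. Mir744 stood at 30.9 times Mir872 in the control and at 54.6 times in the exposed library, a change of 1.76 (1.34 to 2.33). It stood at 116.7 and 386.8 times Mir138-1, a change of 3.31 (1.72 to 6.39). Mir872 stood at 3.77 and 7.08 times Mir138-1, a change of 1.88 whose interval includes 1 (0.923 to 3.82). A difference between the libraries in the level of Mir872 relative to Mir138-1 was thus not detectable at this depth. Mir138-1 was 2.69 times Mir467c in the control and, at the floor of 3 reads for Mir467c, 4.0 times in the exposed library. Of all reads of the 4 fragments, Mir744 made up 95.8% in the control (95.1 to 96.4) and 98.0% in the exposed library (97.5 to 98.3), and Mir872 made up 3.10% (2.60 to 3.66) and 1.79% (1.44 to 2.21).

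Against the 2 other hairpin fragments with the most reads, Mir872 and Mir138-1 were lower, while Mir744 was higher against the Mir532 fragment and within counting error of the Mir1839 fragment. Mir744 stood at 0.418 of mmu_piR_025576 (Mir532) in the control and at 0.543 in the exposed library, a change of 1.30 (1.23 to 1.37). It stood at 7.63 and 6.91 times mmu_piR_028252 (Mir1839), a change of 0.905 with an interval that includes 1 (0.802 to 1.02). Mir872 was lower relative to both, with a change of 0.736 (0.560 to 0.968) against mmu_piR_025576 and 0.513 (0.382 to 0.689) against mmu_piR_028252. Mir138-1 was lower relative to both as well, with changes of 0.392 (0.203 to 0.755) and 0.273 (0.140 to 0.531).

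For a call of lower, a piRNA needed 10 reads or more in either library, an interval that excludes 1 and a CPM ratio no higher than 0.5. By this rule 3 of the 4 fragments (Mir872, Mir138-1 and Mir467c) were lower, beside 18.6% of the 43 piRNAs with enough reads; nothing is read from this, because these ratios were known when the 4 were chosen. With the 5S fragment left out of the total, Mir138-1 and Mir467c were lower, beside 4.65% of the 43, and these 2 fragments were the whole of that percentage. The median log2 ratio of the 4 was -1.65 with Mir467c at its floor, against -0.40 over the 43. On the other scale it was -1.13 against 0.12. The 43 include the 4 fragments. Nothing is read from the second count or from these medians either, because the 4 were chosen with their ratios known.

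Of the 22 other hairpin piRNAs, 11 had at least 10 reads in a library, with 0 lower and 1 higher (ratio of at least 2) on either scale, beside 6.98% of the 43 that were higher by CPM and 11.6% with the 5S fragment left out. Of the 4 fragments, 0 were higher on either scale. The CPM ratios of the 11 ran from 0.549 to 5.09, with 7 below 1 and 4 above, and a median log2 ratio of -0.23. Outside the 5S fragment, 4 were below 1 and 7 above, with a median of 0.29. The 2 with the most reads were mmu_piR_025576, with 9766 and 8545 reads, and mmu_piR_028252, with 535 and 672.

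**Figure D4:**
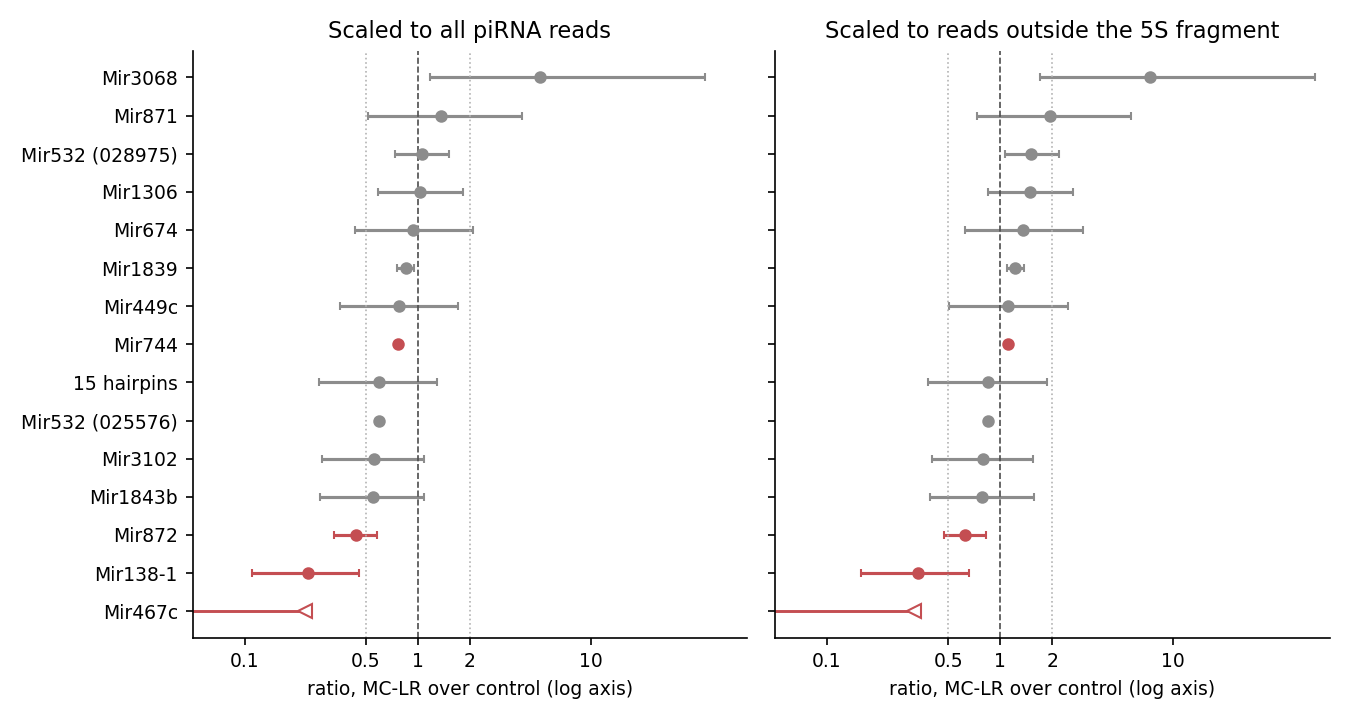
Ratio of the level in the MC-LR over that in the control library (log axis, exact 95% intervals) for the 15 hairpin piRNAs with at least 10 reads in a library, scaled to all piRNA reads (left) and to reads outside the 5S fragment (right); the 4 fragments are red, the others grey, the open triangle is the upper limit for Mir467c, and dotted lines mark ratios of 0.5 and 2. Mir744 lies at 0.771 on the left and 1.11 on the right, while Mir872, Mir138-1 and Mir467c lie below 1 in both panels.

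Over the 2 libraries, the piRNA with the log2 ratio nearest to that of Mir744 (-0.38) was mmu_piR_025007 (-0.38, 4544 and 5153 reads), in the snoRNA gene Gm25855 within Snhg1. Nearest to Mir872 (-1.20) was mmu_piR_030130 (-1.17, 55 and 36 reads), in Snord17. Nearest to Mir138-1 (-2.10) was mmu_piR_039147 (-1.47, 432 and 230 reads), without an exonic match, 0.63 away. There were 41 candidates for each, and with 2 libraries a near ratio says no more than that. For Mir467c, with 0 exposed reads, no nearest ratio was defined.

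The fragments are 19 to 25 nt long, and the 22 other hairpin piRNAs run from 20 to 30 nt. The longest of these, of 27 to 30 nt, all lie in miRNA-type genes with Gm names. Those in hairpins with Mir names run from 20 to 25 nt. Most primary piRNAs and many miRNAs begin with U, and so did 3 of the 4, all but Mir138-1, against 11 of the 22 other hairpin piRNAs and 47 of all 90 detected. piRNAs from the ping-pong cycle tend to have A at base 10. Among the 4 this held for Mir744 alone, against 6 of the 22 other hairpin piRNAs and 23 of all 90 detected. The GC content was 63.6% for Mir744, 42.1% for Mir872, 52.0% for Mir138-1 and 39.1% for Mir467c.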

How the data were processed

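GC-1 small RNA was measured in 1 control and 1 exposed library, 1 per group. The deposited values are read counts per annotated piRNA and per distinct tag, taken as raw because they are whole numbers. Per the submitters' processing notes the build was mm8. The aligner, the trimming and the piRNA set were not given in the sources used here. Tag counts were checked to sum to the piRNA counts. The members, lists and rules were chosen with earlier results of these data known. Named piRNAs are the 4 members, for each the piRNA with the nearest log2 ratio, and the 2 other hairpin piRNAs with the most reads. No nearest ratio was defined for Mir467c. mmu_piR_000691 (the 5S fragment) and mmu_piR_028975 (the other Mir532 arm) fall outside this rule and were named after their values were seen. The comparison of 3′ ends was widened from hairpin fragments to all 18 eligible piRNAs after the hairpin values were seen.

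Sequences were matched exactly to GENCODE M21 transcripts (GRCm38) and to RefSeq miRNAs (GRCm38.p6). A piRNA was put among hairpins where its whole sequence lies in a transcript of type miRNA, in sense. A genome was not used here, so intergenic and intronic copies were not searched. With 1 library per group no test across piRNAs was made. A call needed 10 reads in a library, a fold of 2 and an interval that excludes 1. The rule was tested on simulated data that held counting error alone, so variation between cultures and PCR copies were not covered. A single read is worth 4.10 CPM (control) or 2.78 CPM (exposed). Scale factors came from edgeR 4.0.16 (TMM) and DESeq2 1.42.0 in R 4.3.3, intervals from scipy 1.17.1 and folds from ViennaRNA 2.7.2. Alternatives were other scalings, read minimums and folds, no condition on the interval, and the addition of piRNAs that share 18 nt. Further ones were the leading tag alone, each tag counted once, and tags with at least 2 reads.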

Additional observations from a re-analysis of the deposited data

How the results depend on the processing

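No paired analysis was possible because there is a single library on each side. Of 122 values under other settings, 81 stayed within their interval or, for counts, within 1.5 times the reported count, 36 moved further and 5 turned direction. The 81 include values that could not move. No other detected piRNA shared 18 nt with a fragment, so adding such piRNAs changed nothing. Mir872, Mir138-1 and Mir467c had 1 tag each in the control, so the tag settings left their control values as they were. The 5 were all those of Mir744 under other scalings: its ratio of 0.771 became 1.01 with TMM, 1.002 with DESeq2, 1.11 without the most abundant piRNA, 1.23 without the 10 most abundant and 1.26 against the other hairpin piRNAs. These scalings raise every ratio. With TMM (0.973 to 1.06) and DESeq2 (0.961 to 1.05) the interval of the Mir744 ratio includes 1, so there the difference was within counting error. With the leading tag alone the Mir744 ratio was 0.733. The Mir872 ratio of 0.437 became 0.627, 0.6998 and 0.714 under the last 3 scalings. The Mir138-1 ratio of 0.233 became 0.302 to 0.380 under the 5 other scalings, within its interval. The fold of Mir467c at its floor, 6.39, became 3.91 to 4.91. The 3 changes between members stayed within their intervals under the 2 settings run for them. The count of lower piRNAs, 8, became 3 with TMM and with DESeq2, 2 under each of the other 3 scalings and 5 with at least 50 reads, where fewer are tested. It was 9 with at least 5 reads, with at least 1 read and with no condition on the interval, and 11 with a fold of 1.5. Mir138-1 and Mir467c were lower under all 5 other scalings, Mir872 under none of them. The count of higher piRNAs, 3, became 5 under all 5 and also 5 with no condition on the interval. It was 4 with at least 5 or at least 1 read, 2 with at least 50 and 3 with a fold of 1.5.

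Counting each distinct tag once, which removes abundance, gave for Mir744 in both libraries 14.3% in the leading tag, 57.1% that start at the first base (also that of the mature miRNA) and 42.9% that end at the last base, with mean lengths of 20.3 nt (control) and 20.4 nt (exposed). In the exposed library it gave 50% in the leading tag of Mir872 and of Mir138-1, 50% at the last base of Mir872, and mean lengths of 18.5 and 22.5 nt. Tags with at least 2 reads gave 100% for starts at the first base of Mir744 (and of its mature miRNA), for the leading tag and last base of Mir872 and for the leading tag of Mir138-1, all exposed. Depth limits Mir138-1 and Mir467c most, with 12 and 0 exposed reads.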

Other observations

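Just under the minimum of 10 reads, and named after its values were seen, mmu_piR_010700 had 9 control and 1 exposed read, a CPM ratio of 0.0754 (0.00172 to 0.544). It equals miR-465c-5p and lies in 2 hairpins, Mir465c-1 and Mir465c-2. Just above the minimum stands Mir467c, with 13 and 0.

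The other piRNAs whose odds of ending at the last annotated base differed between the libraries by an interval that excludes 1 were also named after their values were seen. mmu_piR_000818 had an odds change of 1.64 (1.01 to 2.65). mmu_piR_025007 of the snoRNA gene Gm25855 had 0.451 (0.261 to 0.781), and mmu_piR_000620 had 0.192 (0.0485 to 0.757), with 8 and 3 reads at the last base.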
